A study of Homo sapiens with 24 samples.

Results

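FHIT, WWOX, LRP1B, IMMP2L, MACROD2, CNTNAP2, PTPRD and CSMD1 are very long human genes that lie at common fragile sites. Their 1 kb bins were taken from the genome-wide OG-seq table by fixed limits around each gene. The limits use no measured value, while the genes themselves were proposed with earlier results of these data known. Each column of the table was divided by its own mean over all bins. The 8 genes cover 14138 of 2835235 bins, 0.499% of the table, with 900 bins in IMMP2L, 1113 in WWOX, 1504 in FHIT, 1900 in LRP1B, 2058 in MACROD2, 2060 in CSMD1, 2299 in PTPRD and 2304 in CNTNAP2. All 8 labels fitted the annotation in length: of 19970 protein-coding genes, CNTNAP2 ranked 2 by length, PTPRD 3, CSMD1 6, MACROD2 7, LRP1B 9, FHIT 17, WWOX 62 and IMMP2L 99. Exons made up 0.201% to 0.834% of each gene, so nearly every bin described here is intronic.

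The study mapped 8-oxoguanine (OG), the commonest oxidized form of guanine, by labelling it with biotin and pulling down the labelled fragments. It used HAP1 cells, a near-haploid line derived from the KBM-7 leukemia line. The groups were WT cells, MUTYH-/- cells, OGG1-/- cells and double knockout (DKO) cells that lack both glycosylases, each with 3 pull-down (OG) libraries and 3 input libraries, 24 samples in all. The knockouts were CRISPR-Cas9 indels, with 2 clones per genotype at low passage, and both DKO clones came from 1 OGG1-/- clone. The deposited columns are numbered 1 to 3 in each genotype and are called WT1 to WT3, MU1 to MU3, OG1 to OG3 and DKO1 to DKO3 here. The sample titles give each library a clone and a replicate number, with 2 of the 3 OG libraries of every genotype from 1 clone and the third from the other. The column names do not say which of these libraries a column holds. Every SD and p-value below with n = 3 therefore covers the spread between these columns, which are not 3 independent clones.

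Common fragile sites are chromosome regions that form gaps and breaks in metaphase when replication is slowed, and many of them span very long genes whose replication ends late. Deletions inside these genes are frequent in tumours and in cultured cell lines, with FHIT and WWOX as the best studied cases. OGG1 removes OG paired with cytosine, and MUTYH removes adenine that was inserted opposite OG. A pull-down signal depends both on the OG in the DNA and on the amount of DNA, which the input libraries record.

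Each deposited value is the number of OG reads in a bin after a scaled subtraction of 2 runs of input reads, and it can fall below 0. Solving the values for whole reads gave 59.6 M to 114 M OG reads per column (21.0 to 40.2 per bin) and 78.6 M to 102 M input reads (27.7 to 35.8 per bin), with at most 8 bins per column unsolved. A gene level below is the mean deposited value of the gene's bins divided by the column mean, so that 1 is the genome average, and a read level is the same quantity for OG or input reads alone. No correlation, overlap or sign is compared between the 3 knockouts as a result, because all 3 share the WT columns.

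WWOX, a WW-domain oxidoreductase and tumour suppressor on chromosome 16 (GRCh38, chr16:78099400-79212667, plus strand, 9 exons), stood apart from the other genes because 10 of the 12 columns had stretches inside it with almost no reads in either library. Such segments, found after the values had been seen, were runs of at least 10 kb in which the summed OG and input reads lay at or under 25% of the second highest column. Genome-wide, 1214 bins (0.0428%) fell in a segment of any column, and 492 of them were in WWOX, 44.2% of the gene. No bin of the other 7 genes did. WT1 and WT2 had no segment anywhere in the genome.

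The segments differed between columns and were shared by some of them. In WT3 the only segment was 26 kb long, at chr16:78724001-78750000. MU1 and MU2 both lacked reads over 303 kb at chr16:78513001-78816000, which is 27.2% of the gene, while MU3 had a 118 kb segment further upstream at chr16:78403001-78521000. OG1 and OG2 both had a 206 kb segment at chr16:78505001-78711000. OG3 and all 3 DKO columns shared a pair of segments, 100 kb at chr16:78489001-78589000 and 79 kb at chr16:78961001-79040000, which together are 16.08% of the gene. The segments overlapped in the middle of the gene: 8 bins lay in the segments of 9 columns, 68 in those of 8 columns, and none in those of all 10. Bins inside the segments averaged 43.1% GC and those outside 42.3%.

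**Figure D1:**
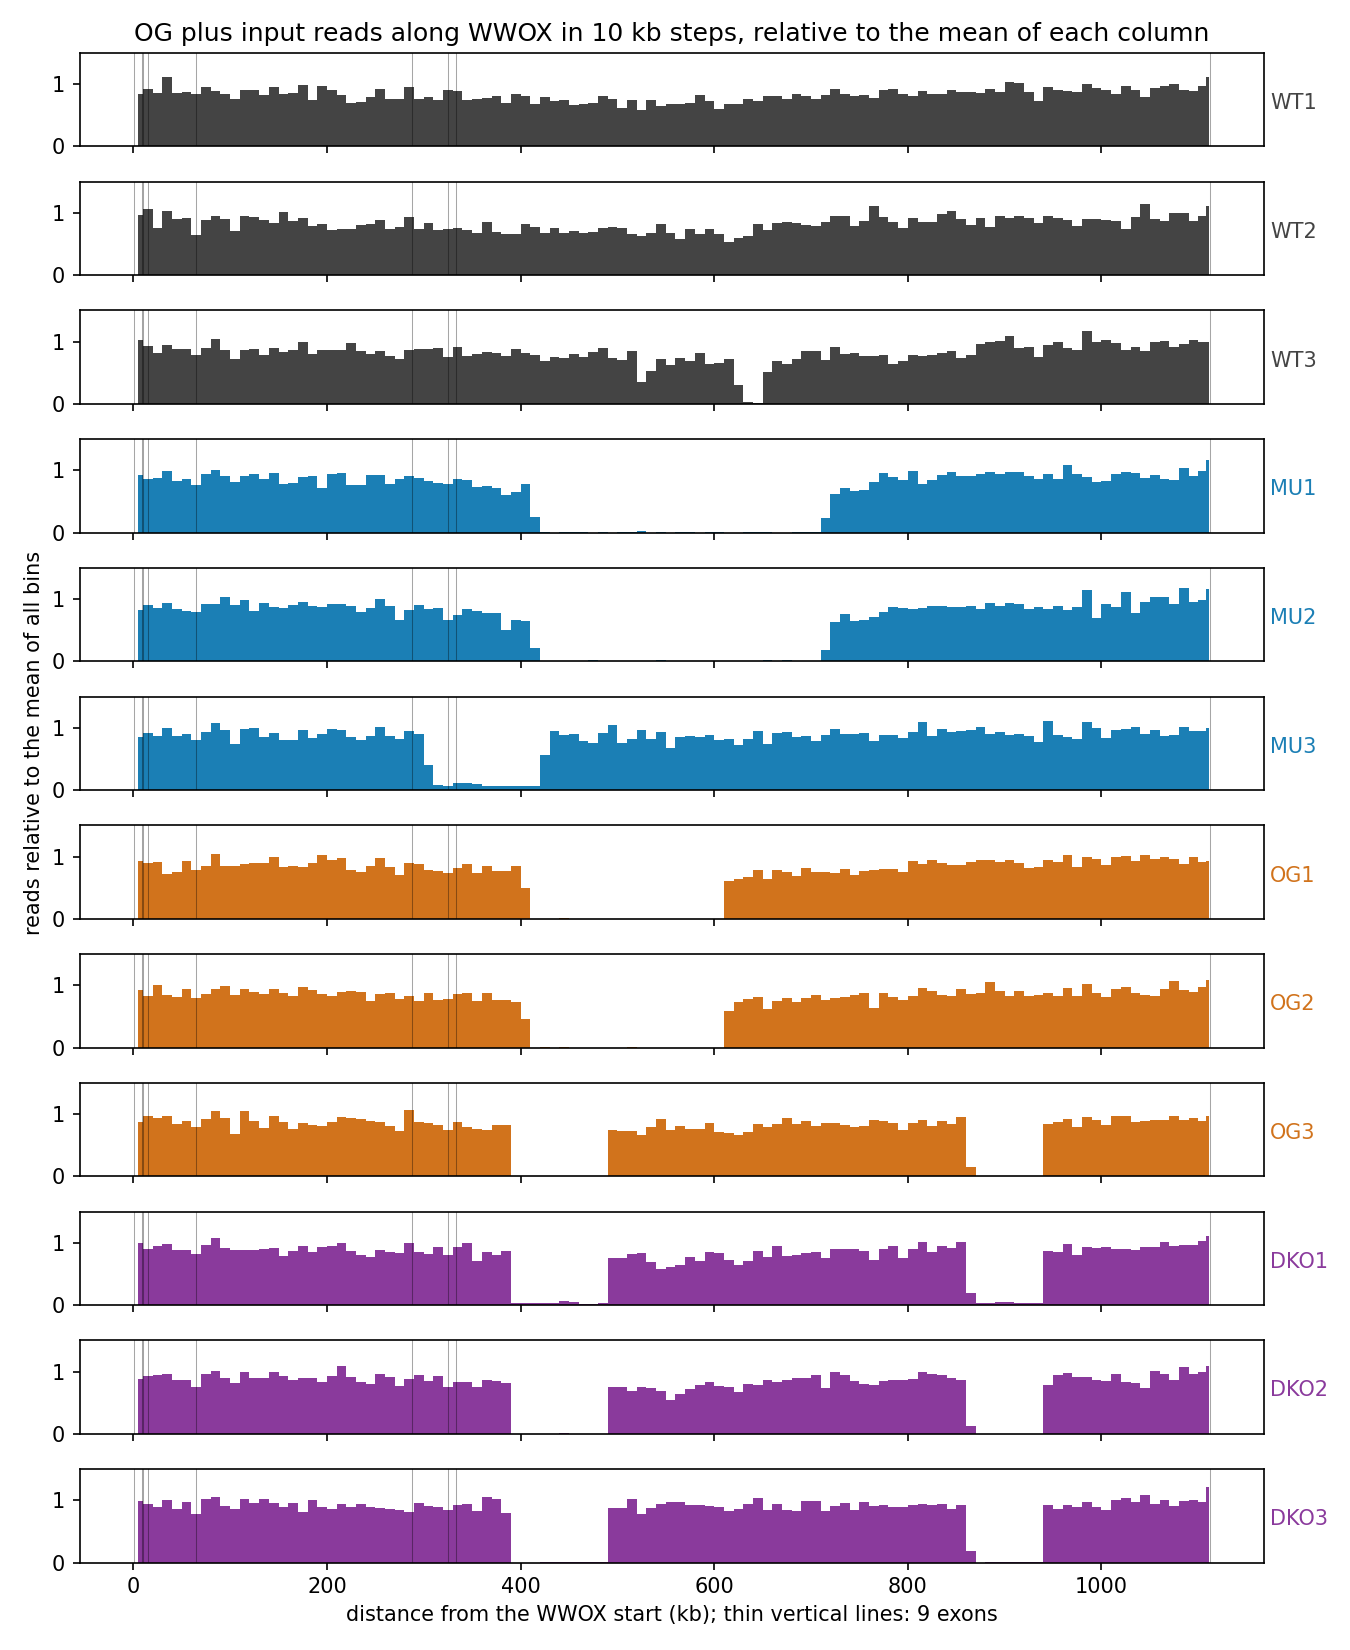
OG plus input reads along WWOX in 10 kb steps, a panel per column (x axis: distance from the annotated start in kb, y axis: reads relative to the column mean over all bins, thin vertical lines: the 9 exons). Segments without reads appear as gaps in 10 of the 12 columns, widest in MU1 and MU2 (303 kb) and absent from WT1 and WT2.

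Read counts showed how empty the segments were. In OG3 the 179 segment bins held 6 OG reads and 3 input reads, 0.0955% and 0.0559% of the level of the rest of the gene. The other 9 columns kept between 0.0903% and 8.64% of the OG reads and between 0.129% and 8.64% of the input reads. MU3 had the highest input share, with 281 OG and 289 input reads in its 118 bins, 8.64% of the outside level in both libraries. DKO1 was the column in which the libraries parted: 457 OG reads (8.29%) but only 9 input reads (0.163%) fell in its segments. The deposited DKO1 value therefore averaged 2.52 inside its WWOX segments against 8.22 outside, while in DKO2, which has the same segments, it averaged -0.00152 inside and 10.1 outside. Over all its segments in the genome DKO1 held 1288 OG reads and 24 input reads, 7.29% and 0.133% of the genome mean, so the same gap was seen outside WWOX. The cause of that gap was not tested.

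**Figure D2:**
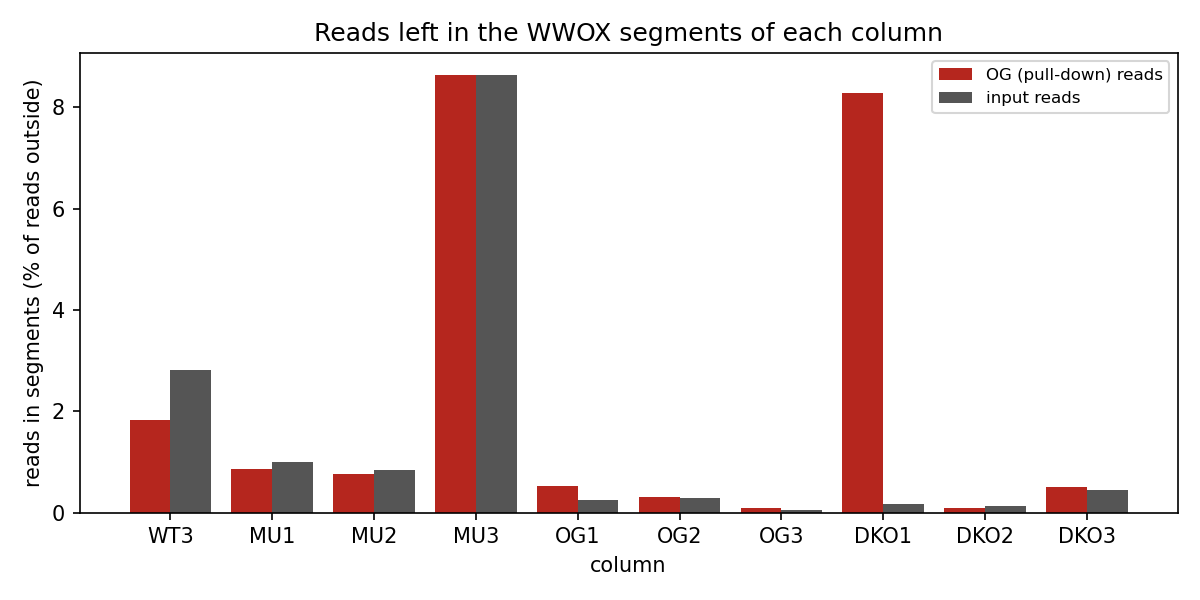
Reads left in each column's own WWOX segments as a percentage of the reads per bin in the rest of the gene (red bars: OG reads, grey bars: input reads, 10 columns with a segment). DKO1 has 8.29% of OG reads against 0.163% of input reads, and MU3 has 8.64% of both.

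The regions without reads in some columns were covered in the others. Over the bins that were in another column's segments but not in its own, input reads per bin lay between 84.9% (WT2, DKO1) and 98.2% (DKO3) of the level outside all segments. In WT3 a further 10 kb step centred 525 kb from the start stood at 0.360 of the genome mean, against 0.582 in WT1 and 0.636 in WT2, without meeting the segment rule. By a stricter rule, a value of exactly 0 in all 3 columns of a genotype in at least 2 adjacent bins, WWOX had 0 such bins in WT and MUTYH-/-, 71 in OGG1-/- cells and 20 in DKO. CNTNAP2 had 3, 2, 3 and 3 and the other 6 genes had none, against 1181, 1177, 1237 and 670 over all bins.

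All segments except that of MU3 lay wholly in intron 8, which is 779 kb long and separates exon 8 (chr16:78432488-78432752) from exon 9 (chr16:79211608-79212667). The MU3 segment held exons 7 and 8, which code for a stretch of the short-chain dehydrogenase part of the protein. They are 186 and 265 bases long, 451 bases in all, which leaves a remainder of 1 when divided by 3. They are the only canonical WWOX exons that any column lacked. Exon 8 is shown because intron 8, which holds the other segments, begins at its end, read from the GRCh38 plus strand with the exon in capitals and 10 flanking intronic bases on each side in lower case (chr16:78432478-78432762).
WWOX exon 8: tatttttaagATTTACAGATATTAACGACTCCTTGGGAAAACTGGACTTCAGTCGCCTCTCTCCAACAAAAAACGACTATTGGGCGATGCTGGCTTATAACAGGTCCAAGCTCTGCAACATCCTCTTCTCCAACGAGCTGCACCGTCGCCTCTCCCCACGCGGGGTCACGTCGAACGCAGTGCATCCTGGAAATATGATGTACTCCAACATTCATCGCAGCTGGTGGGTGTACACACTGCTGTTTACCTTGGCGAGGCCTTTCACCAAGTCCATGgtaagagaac

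The shared core of the segments also held the longest run of TA in any of the 8 genes. Long TA runs can fold back on themselves and are known to slow replication forks. The WWOX run has 36 TA units (72 bases) at chr16:78575024-78575095, and 8 of the 12 columns had it inside a segment. It is shown with 40 flanking bases on each side, GRCh38 plus strand, chr16:78574984-78575135, the run in capitals.
WWOX TA repeat: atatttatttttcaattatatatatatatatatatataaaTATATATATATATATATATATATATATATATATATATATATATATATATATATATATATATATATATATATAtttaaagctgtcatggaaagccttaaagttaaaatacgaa

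A run at least that long was found in 30 of 2805724 bins (0.00107%). The longest TA runs of the other 7 genes were shorter, from 42 bases in IMMP2L to 60 in PTPRD, and none lay in a segment. Runs of TA of at least 12 bases occurred in 2.17% of all bins, 2.85% of the bins of the 8 genes, 3.25% of WWOX bins inside segments and 1.61% outside. These counts describe the reference letters only, and whether they bear on the segments was not tested.

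Only 4 of 320 protein-coding genes of at least 500 bins held a segment, and none of the 11329 shorter ones of at least 20 bins did. Of a list of 12 further long genes known from common fragile sites, DLG2, a synaptic scaffold, had 40 of 2173 bins in a segment of OG1 and OG2. ROBO2, an axon guidance receptor outside both lists, had 127 bins in DKO1 and DKO2. WWOX held between 31.9% (DKO3) and 100% (WT3, MU3) of a column's segment bins.

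The deposited OG levels of the 8 genes lay below the genome average in every column, with the exception of FHIT in OG3. FHIT, which hydrolyses diadenosine polyphosphates and is a tumour suppressor (chr3:59747277-61251459, minus strand), stood at 0.916, 0.853 and 0.914 in WT, at 0.860, 0.982 and 0.977 in MUTYH-/-, at 0.952, 0.804 and 1.04 in OGG1-/- cells and at 0.966, 0.862 and 0.992 in DKO. The 4 groups overlapped. WWOX stood at 0.839, 0.860 and 0.974 in WT, at 0.681, 0.648 and 0.854 in MUTYH-/-, at 0.762, 0.7999 and 0.754 in OGG1-/- cells and at 0.872, 0.860 and 0.862 in DKO. MU1 and MU2, the columns with the 303 kb segment, were the lowest, and no OGG1-/- column reached the WT range.

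MACROD2, an enzyme that removes ADP-ribose from proteins (chr20:13995369-16053197, plus strand), had levels of 0.794, 0.852 and 0.822 in WT, 0.785, 0.811 and 0.927 in MUTYH-/-, 0.793, 0.740 and 0.781 in OGG1-/- cells and 0.863, 0.833 and 0.822 in DKO. The OGG1-/- columns were all below WT, but the highest of them (0.793) and the lowest WT column (0.794) nearly met. IMMP2L, a subunit of the mitochondrial inner membrane peptidase (chr7:110662644-111562517, minus strand), had 0.765, 0.869 and 0.748 in WT, 0.684, 0.875 and 0.792 in MUTYH-/-, 0.751, 0.669 and 0.710 in OGG1-/- cells and 0.903, 0.719 and 0.810 in DKO. Its groups all overlapped with WT.

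The other genes code for large membrane proteins. LRP1B, a receptor of the LDL receptor family (chr2:140231423-142131016, minus strand), had 0.692, 0.729 and 0.717 in WT, 0.585, 0.781 and 0.804 in MUTYH-/-, 0.708, 0.562 and 0.652 in OGG1-/- cells and 0.8995, 0.538 and 0.801 in DKO, the widest scatter of the 8 (coefficient of variation 15.4%). Its WT columns lay close together and overlapped with each knockout. CSMD1, a complement regulator (chr8:2935353-4994972, minus strand), had 0.860, 0.764 and 0.792 in WT, 0.731, 0.810 and 0.849 in MUTYH-/-, 0.771, 0.737 and 0.817 in OGG1-/- cells and 0.922, 0.759 and 0.882 in DKO.

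The neuronal adhesion protein CNTNAP2 of the neurexin family (chr7:146116002-148420998, plus strand) had 0.778, 0.727 and 0.778 in WT, 0.655, 0.816 and 0.844 in MUTYH-/-, 0.728, 0.715 and 0.726 in OGG1-/- cells and 0.866, 0.753 and 0.794 in DKO. PTPRD, a receptor tyrosine phosphatase (chr9:8314246-10613002, minus strand), had 0.738, 0.786 and 0.810 in WT, 0.699, 0.829 and 0.831 in MUTYH-/-, 0.755, 0.644 and 0.758 in OGG1-/- cells and 0.825, 0.671 and 0.821 in DKO. Neither gene had a knockout group clear of WT, and MU1 was the lowest of the MUTYH-/- columns in both, as in every gene of the 8 but WWOX.

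**Figure D3:**
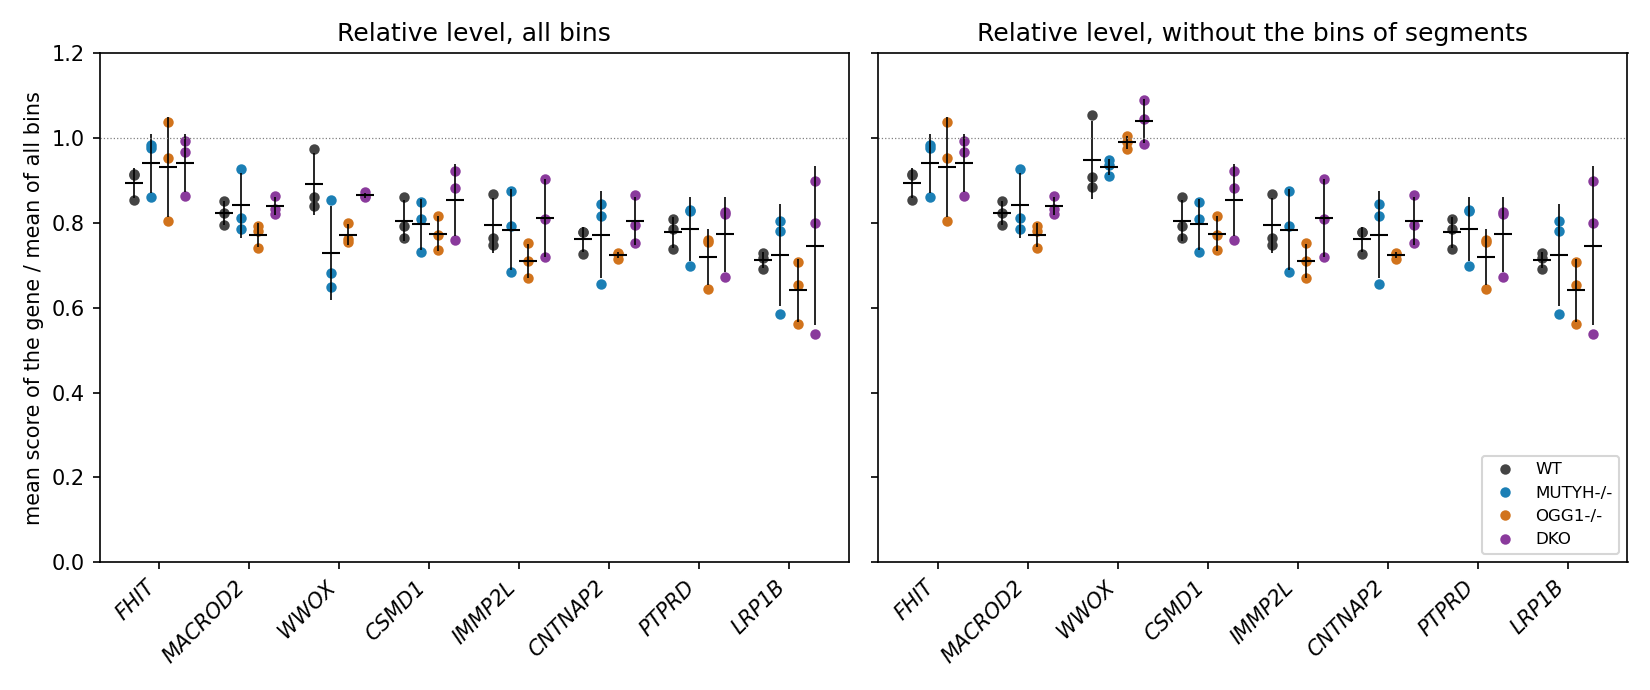
Relative OG level of each of the 8 genes in the 12 columns with all bins (left) and without the bins of the segments (right) (y axis: mean value of the gene's bins over the column mean, dotted line: genome average of 1, points: columns, black dashes and bars: group mean and SD). By this subtracted value FHIT lies above MACROD2 in all 12 columns, and WWOX is lowest in MU1 (0.681) and MU2 (0.648).

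Ordered by their mean over the 12 columns, FHIT (0.926 ± 0.070, SD) came first and LRP1B (0.706 ± 0.108) last. FHIT exceeded the next gene, MACROD2 (0.818 ± 0.048), in 12 of 12 columns, by 0.108 ± 0.072. From MACROD2 down through WWOX (0.814 ± 0.090) to CSMD1 (0.808 ± 0.060), neighbours differed by less than their spread and the upper gene led in 5 of 12 columns each time. CSMD1 led IMMP2L (0.775 ± 0.077) in 10 of 12 columns by 0.0331 ± 0.0618, which is also within the spread. IMMP2L, CNTNAP2 (0.765 ± 0.060) and PTPRD (0.764 ± 0.065) could not be put in order, and PTPRD lay above LRP1B in 11 of 12 columns by 0.0582 ± 0.0548. This order is that of the subtracted value and did not hold for the ratio of OG to input reads. As a mean ratio FHIT stood at 0.974 and MACROD2 at 0.976, and WWOX was the highest of the 8 at 1.03. The input level was 1.02 in FHIT and 0.901 in MACROD2.

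Levels this low were usual for genes of this length. The median over the 8 genes was 0.791, against 0.825 over the 423 other genes of at least 500 bins, 0.821 over the list of 12 and 1.09 over all 16959 genes of at least 20 bins. Within the 431 long genes the 8 spanned the 18.3 percentile (LRP1B) to the 72.2 percentile (FHIT). Within the list of 12, the highest level was 1.60 in RORA.

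The level of a long gene followed its GC content closely. Across the 423 other long genes Spearman's rho of level and GC was 0.902, and across the 8 genes 0.857, where GC ran from 34.8% in LRP1B to 42.6% in WWOX. The genes share the same 12 libraries and are not independent, so these are descriptions. Dividing each bin by the mean of its own GC stratum in the same column brought the median of the 8 genes to 1.00, against 0.962 for the other long genes. LRP1B (1.07), IMMP2L (1.07) and PTPRD (1.08), low before, then lay above 1, FHIT was at 1.03 and MACROD2, CNTNAP2 and CSMD1 were at 0.974, 0.936 and 0.924.

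WWOX did not follow the other long genes. Its GC-stratified level of 0.726 was at the 0.232 percentile of the 431 long genes, with a single gene lower. The 31 long genes within 1 percentage point of its GC content had levels from 0.956 to 2.18 with a median of 1.05, all above the WWOX level of 0.814. With the 492 segment bins left out of every column its level was 0.977 ± 0.064 over the 12 columns, still in the lower part of that range. WT1 and WT2, which had no segment, stood at 0.839 and 0.860 with all bins. The WWOX input level was also low, at 0.729 against a median of 0.944 over the other long genes. Its ratio of OG to input reads was 1.03, against a median of 0.964.

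**Figure D4:**
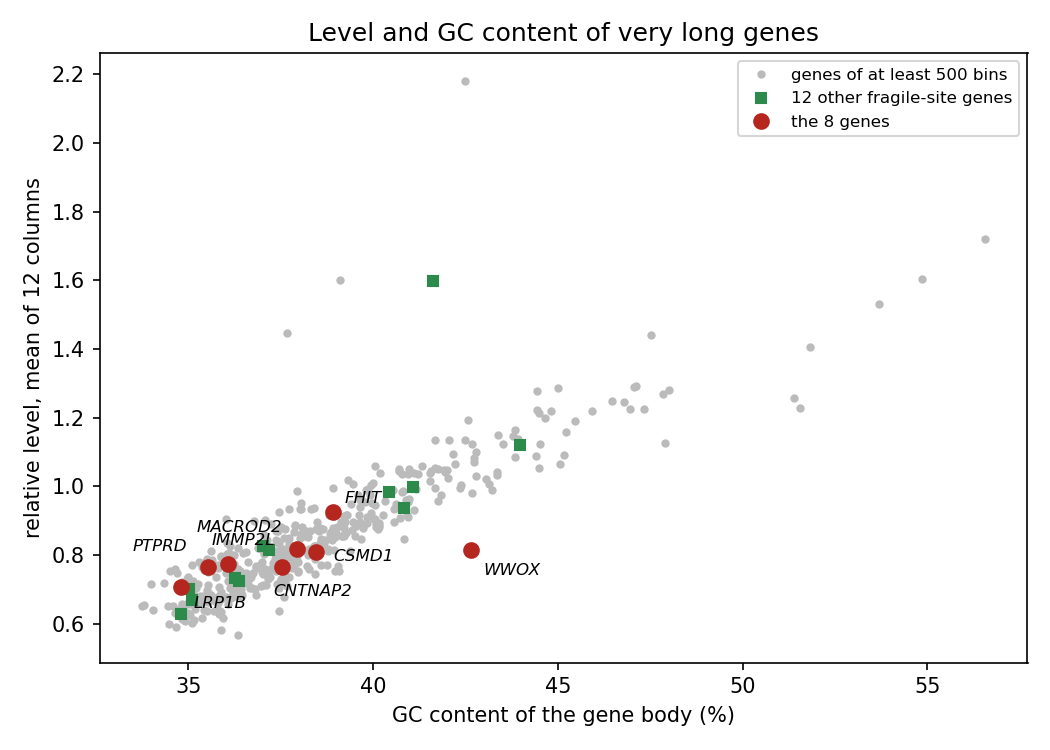
Relative OG level (y axis, mean of 12 columns) against GC content in percent (x axis) for the 431 genes of at least 500 bins, with the 8 genes in red and the list of 12 as green squares. FHIT, LRP1B and the others lie along the band of long genes, while WWOX at 42.6% GC and 0.814 lies under all 31 genes of like GC.

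Set against WT, no gene level of the 8 passed the test in any knockout. In limma fits over all 16959 genes with Benjamini-Hochberg adjustment, 0 genes (0%) were called at an adjusted p of 0.05 in MUTYH-/-, OGG1-/- or DKO or for the interaction of both knockouts, and 565, 758, 739 and 948 had an unadjusted p under 0.05. WWOX was the only gene of the 8 with an unadjusted p under 0.05. Its limma difference from WT was -0.16 (SE 0.056) in MUTYH-/-, with a p of 0.00762 and adjusted p = 0.999. In OGG1-/- the limma difference was -0.12, with a p of 0.0445 and adjusted p = 0.966, and in DKO it was -0.026, with a p of 0.645. The interaction for WWOX was 0.256 (SE 0.079), with a limma p of 0.00356 and an adjusted p of 0.858. These WWOX differences include the segment bins, and the segments differ in length between the genotypes.

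The exact two-sided permutation test over columns, which cannot go below 0.1 with 3 columns against 3, gave p = 0.2, 0.1 and 1 for WWOX in MUTYH-/- (0.728 ± 0.111), OGG1-/- (0.772 ± 0.024) and DKO (0.865 ± 0.0063) against WT (0.891 ± 0.072; SD, n = 3 each). MACROD2 in OGG1-/- (0.771 ± 0.028) against WT (0.823 ± 0.029) also reached the smallest possible exact p of 0.1, and no other gene of the 8 did in any knockout. On this scale (mean value over column mean), these were the only levels of the 8 genes that did not overlap with WT: 0 of 8 in MUTYH-/-, where 8% of all genes did not overlap, 2 of 8 in OGG1-/- (12.4%) and 0 of 8 in DKO (9.58%). When the segment bins were left out, the WWOX levels overlapped in every knockout, at 0.948 ± 0.092 in WT, 0.932 ± 0.019 in MUTYH-/-, 0.990 ± 0.015 in OGG1-/- cells and 1.04 ± 0.053 in DKO, and the sign of its difference turned in OGG1-/- (0.042) and DKO (0.0919). The segments were called from the same reads, in every knockout column but only in WT3 of the WT columns. Leaving out bins picked for few reads raises the columns that lacked them, so these values are a description and not a test.

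In direction, 5 of the 8 genes were above WT in MUTYH-/-, 1 in OGG1-/- (FHIT) and 6 in DKO. The median difference was 0.00951, -0.0551 and 0.0249 in that order, against -0.00550, -0.0379 and 0.0174 over the 431 long genes, the 8 included, and 0.00712, 0.0127 and -0.00905 over all genes. In the list of 12, where none was called, 4, 3 and 9 genes were above WT with median differences of -0.0119, -0.0345 and 0.0256. The direction in LRP1B depended on GC: its OGG1-/- difference was -0.0719 here and 0.0512 with GC strata, where WWOX stayed at -0.123. With GC strata, LRP1B did not overlap with WT in MUTYH-/- (0.0469) or OGG1-/-, and FHIT did not in MUTYH-/- (0.0625). The share of all genes without overlap was not computed with GC strata.

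Input reads, which measure DNA and not OG, moved with several of these values. WWOX input levels were 0.812 ± 0.022 in WT, 0.684 ± 0.102 in MUTYH-/-, 0.694 ± 0.014 in OGG1-/- cells and 0.728 ± 0.031 in DKO (SD, n = 3), and the ratio of OG to input reads was 1.03 ± 0.032, 1.02 ± 0.0054, 1.03 ± 0.017 and 1.05 ± 0.011. The ratios overlapped with WT in every knockout, while the input levels lay below WT without overlap in OGG1-/- cells and DKO (exact permutation p = 0.1 each). Input levels did not overlap with WT for 2 of the 8 genes in MUTYH-/- (FHIT and MACROD2; 19.4% of all genes), for 3 in OGG1-/- (WWOX, MACROD2 and PTPRD; 15.2%) and for 4 in DKO (WWOX, MACROD2, CNTNAP2 and PTPRD; 33.1%).

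MACROD2 had the widest of these input shifts after WWOX. Its input level was 0.862 ± 0.018 in WT, 0.887 ± 0.015 in MUTYH-/-, 0.892 ± 0.0089 in OGG1-/- cells and 0.962 ± 0.027 in DKO. Chromosome 20 as a whole stood at 1.11 to 1.12 of the genome mean in the input of the DKO columns and at 1.03 to 1.06 elsewhere. More copies of a region and more reads per copy cannot be told apart in these bulk libraries. The ratio of OG to input reads for MACROD2 was 0.985 ± 0.012 in WT and 0.969 ± 0.0041 in DKO, with overlapping columns.

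OG-DERs here are single bins that differ from WT, called at an unadjusted limma p up to 0.01 with a log2 fold change past 0.5 in either direction on the log2(value + 1) scale. The study used the name for regions of genomic features, such as exons and CpG islands, tested with edgeR, so the units differ. Of 14121 bins of the 8 genes that could be tested, 38 gained and 31 lost OG in MUTYH-/-, against 0.3% gained and 0.322% lost over all bins. OGG1-/- had 15 gains and 44 losses (0.299% and 0.256% over all bins), and DKO had 33 gains and 32 losses (0.296% and 0.312%). No bin of the 8 genes passed an adjusted p of 0.05 by limma.

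With all 12 columns in the fit, WWOX held more of the losses than its length would give. It had 11, 22 and 12 lost bins of 1106 tested (0.995%, 1.99% and 1.08%), and 1, 0 and 5 gained bins, in MUTYH-/-, OGG1-/- and DKO. Of those losses 10, 19 and 12 lay in segments, which were called from the same reads, so this count is a description. With the segment bins left out, WWOX had 1, 3 and 0 losses among 621 bins, and the 8 genes together had 21, 25 and 20.

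**Figure D5:**
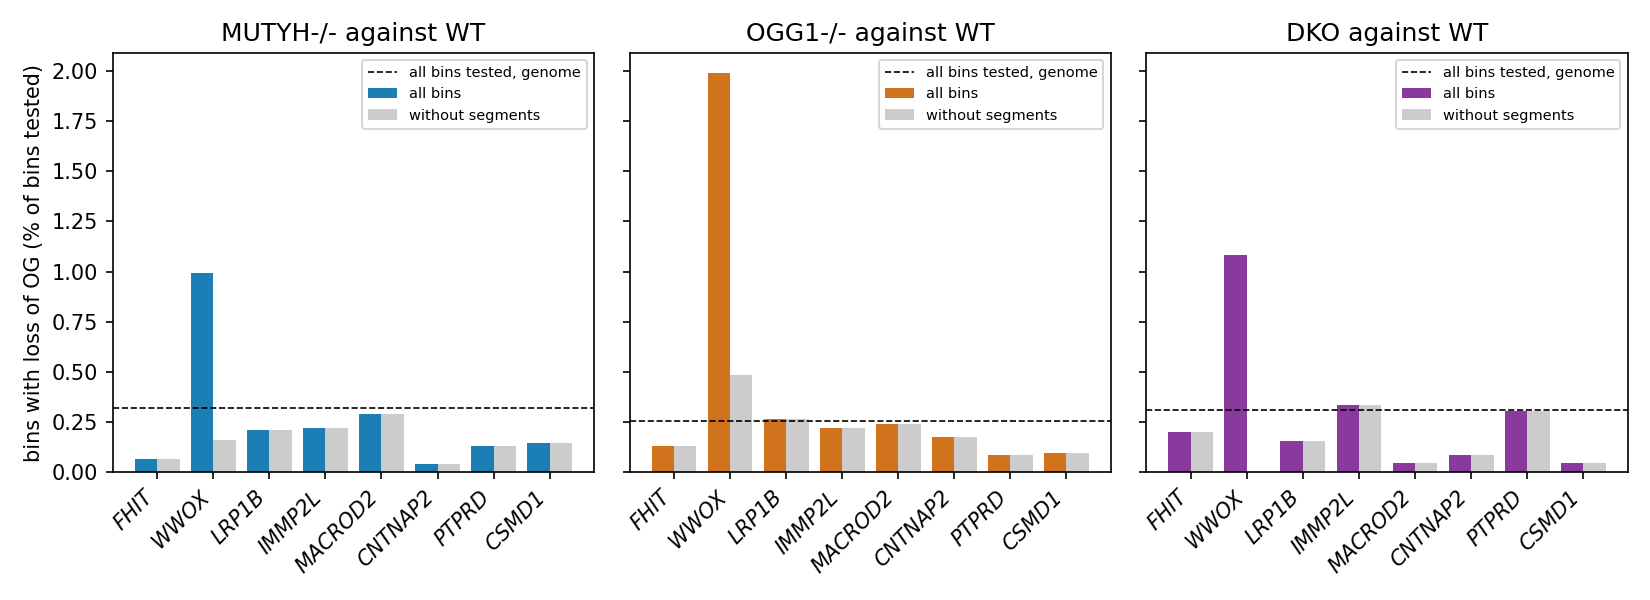
Percentage of tested bins that lost OG against WT in each knockout (y axis) for each of the 8 genes, with all bins (coloured bars) and without the bins of the segments (grey bars), with the percentage over all tested bins as a dashed line. WWOX stands at 0.995%, 1.99% and 1.08% with the segments.

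Losses in the other 7 genes ranged from 1 bin (FHIT and CNTNAP2 in MUTYH-/-, MACROD2 and CSMD1 in DKO) to 7 bins (PTPRD in DKO), and gains from 0 (LRP1B in OGG1-/-) to 9 (PTPRD in MUTYH-/-). The OG-DER of smallest p in each gene was an intronic bin with reads scattered on either side of the input. In WWOX it was a DKO gain at chr16:78839001-78840000, with values of -3.39, -1.80 and -3.18 in WT, -4.65, -0.107 and 5.54 in MUTYH-/-, -11.4, -5.91 and -0.21 in OGG1-/- cells and 26.6, 32.2 and 15.2 in DKO. The DKO columns stood above all 9 others, outside any segment, with a log2 fold change of 4.53 (SE 1.38; limma p of 0.000983, adjusted p = 0.990). In PTPRD it was a MUTYH-/- loss at chr9:8550001-8551000, with 17.4, 19.2 and 35.4 in WT and -10.8, -17.3 and -11.7 in MUTYH-/-.

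In LRP1B it was an OGG1-/- loss at chr2:140403001-140404000, where WT had 15.6, 11.7 and 22.1 and the OGG1-/- columns -3.22, -3.79 and -9.67. The remaining smallest-p bins were gains in FHIT (chr3:60463001-60464000, DKO), IMMP2L (chr7:110854001-110855000, MUTYH-/-), CNTNAP2 (chr7:147722001-147723000, DKO) and CSMD1 (chr8:3453001-3454000, MUTYH-/-) and a loss in MACROD2 (chr20:14173001-14174000, MUTYH-/-). All 8 bins were picked for their p, so their values are a description. Each gain rests on WT values near or below 0, where the log2(value + 1) scale starts at 0.

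OG-enriched bins (OG-EBs) were taken here as those at or above the 95th percentile of a column in at least 2 of 3 columns. They were ranked on the deposited input-subtracted value, whereas the study ranked OG over input reads, and the share of the 8 genes depended on that choice. The study also required a bin in both technical replicates and found only a small number of OG-EBs. Here 38046 bins of the genome met the rule in WT, and 24462 by the log2 ratio, so these are not the study's set. Ranked by OG reads over input reads on the log2 scale, the 8 genes held 0.948%, 0.778%, 0.729% and 0.884% of bins as OG-EBs in WT, MUTYH-/-, OGG1-/- cells and DKO, against 0.863%, 0.924%, 0.944% and 0.923% over the genome, so the WT share lay above the genome and the others below. On the subtracted value, WT had 39 (0.276% of bins, against 1.34% over the genome), MUTYH-/- 37 (0.262% against 1.33%), OGG1-/- 35 (0.248% against 1.54%) and DKO 38 (0.269% against 1.3%). Bins of the same GC strata elsewhere gave counts of 87.9, 92.0, 88.7 and 93.0 for genes of this size. MACROD2 had the most in WT (11) and DKO (10), and FHIT had the most in MUTYH-/- (9) and OGG1-/- (13) but 1 in DKO.

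WWOX, the most GC-rich of the 8, had 2, 1, 3 and 1 such bins by the subtracted value in WT, MUTYH-/-, OGG1-/- and the DKO cells, where its GC strata gave 16.10, 16.7, 17.8 and 17.2. By the ratio of OG to input reads the direction reversed: WWOX had 20, 18, 14 and 22 OG-EBs, 1.80%, 1.62%, 1.26% and 1.98% of its bins, above the genome share in each genotype. By the subtracted value no bin of the 8 genes was an OG-EB in all 4 genotypes, against 888 of all bins.

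The bin with the highest mean in CNTNAP2, chr7:148331001-148332000, reached 40.3, 4.54 times the genome average and well above the highest bins of the other 7 genes (18.2 to 21.8). Its values were 8.96, 28.7 and 65.7 in WT, 51.6, 25.4 and 31.2 in MUTYH-/-, 21.0, 9.67 and 80.3 in OGG1-/- cells and 28.9, 75.2 and 57.5 in DKO. It was high in every genotype with a wide scatter, and was an OG-EB in 3 of 4 genotypes. Both libraries were deep there, with 1455 OG and 1381 input reads over the 12 columns against 475 to 553 OG and 321 to 411 input reads in the highest bins of the other 7 genes. It has 52.0% GC and lies 2216 kb from the start of the gene, in the GC-rich 3′ end.

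The highest bins of the other genes were also intronic. The PTPRD bin at chr9:10449001-10450000 (mean 21.7) has 58.6% GC and was just below 0 in DKO1 (-0.194). In FHIT the highest bin was chr3:59999001-60000000 (21.8) and in WWOX chr16:78351001-78352000 (21.6), upstream of the segments. Those of CSMD1 (chr8:4854001-4855000, 20.2), MACROD2 (chr20:15544001-15545000, 20.6), IMMP2L (chr7:111437001-111438000, 18.3) and LRP1B (chr2:141121001-141122000, 18.2) had at least 1 column below 0. Copies of GGG, counted without overlap on both strands, numbered 11 in the highest bin of CNTNAP2, 15 in LRP1B, 21 in IMMP2L, 22 in FHIT and MACROD2, 26 in WWOX, 37 in CSMD1 and 49 in PTPRD, against a median of 18 over all bins. At least as many were held by 83.97% of all bins for CNTNAP2 and by 2.99% for PTPRD, so the highest bins did not share a high count.

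By the subtracted value, most bins at the annotated start were not high. Relative to the genome they stood at 1.37 in WWOX, 1.18 in CSMD1, 0.792 in FHIT, 0.717 in MACROD2, 0.704 in IMMP2L, 0.613 in CNTNAP2, 0.402 in PTPRD and 0.378 in LRP1B, although their GC content was 44.6% to 68.6%. Single bins carry few reads, and each of the 8 was below 0 in at least 1 column.

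Cut into 10 equal parts from the 5′ end, CNTNAP2 had levels of 0.664 ± 0.101 in the first and 1.06 ± 0.089 in the last, with GC of 36.3% and 42.7%. FHIT went from 0.816 ± 0.086 to 1.0997 ± 0.136 with GC of 39.1% and 40.9%. MACROD2 likewise ended higher (0.954 ± 0.108) than it began (0.713 ± 0.090). WWOX had a trough in the middle, at 0.603 ± 0.212, 0.444 ± 0.374 and 0.615 ± 0.344 in parts 4, 5 and 6, where every bin lies in a segment of at least 1 column and GC is 42.2% to 43.3%. LRP1B was flat, between 0.636 and 0.770.

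Bins that touch a canonical exon were too few for most genes to be read on their own. CSMD1 had 83 of them at 0.933 ± 0.151 against 0.802 ± 0.064 for intron bins, higher in 10 of 12 columns. CNTNAP2 had 31 at 0.864 ± 0.175 against 0.764 ± 0.060 (9 of 12 columns), and LRP1B 110 at 0.775 ± 0.188 against 0.701 ± 0.108 (7 of 12). FHIT (12 exon bins, 1.16 ± 0.506 against 0.925 ± 0.070, 8 of 12) and WWOX (11 exon bins, 0.892 ± 0.320 against 0.813 ± 0.092, 7 of 12) had the same sign. PTPRD was level, with 53 exon bins at 0.762 ± 0.170 against 0.764 ± 0.064 (6 of 12). Exon bins averaged less than intron bins in MACROD2 (22 bins, 0.789 ± 0.279 against 0.819 ± 0.047, higher in 7 of 12) and in IMMP2L (7 bins, 0.477 ± 0.435 against 0.777 ± 0.078, higher in 2 of 12). These differences are within the spread between columns.

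Across the 12 columns, 7 of the genes tended to move together and WWOX did not. Pearson's r of a gene with the mean of the other 7 was 0.910 for LRP1B, 0.879 for PTPRD, 0.860 for CNTNAP2, 0.824 for CSMD1, 0.754 for IMMP2L, 0.679 for MACROD2, 0.543 for FHIT and 0.240 for WWOX. Among the 423 other long genes, the 5 most like the mean of the 8 included PKN2-AS1 (r = 0.966), CCSER1 (0.954), LINC00276 (0.951) and ADGRB3 (0.946), with a median of 0.653 over all of them. All points share the same 12 libraries, so these are descriptions of the columns.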

How the data were processed

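OG-seq pull-down (OG) and input libraries of HAP1 cells were analysed as a deposited table of 1 kb bins (GRCh38) with 12 columns, 3 per genotype. The authors trimmed reads with cutadapt 2.8, aligned them with Bowtie2 2.3.5.1, counted them in bins and subtracted scaled input from OG reads, so that each deposited value is a score that can fall below 0 and is not a count. Whole OG and input reads were solved from the steps of the values. Because the values are not counts, limma 3.58.1 in R 4.3.3 replaced the edgeR test of the study in both fits.

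Gene levels were means of bins over the column mean, for genes of at least 20 bins, on a linear scale with a variance trend on the number of bins. Bins were tested on log2(value + 1) with values below 0 set to 0, columns scaled to the mean total, and bins above 0 in at least 3 columns. In the bin fit every bin took the trend variance. All 12 columns entered each fit, with Benjamini-Hochberg adjustment over all features. Exact two-sided permutation tests over columns were used for single genes. GC effects were described with 20 strata. Sequences and annotation were read from GRCh38. Python 3.11.15, numpy 2.4.6, pandas 2.3.3 and scipy 1.17.1 were used.

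All 8 genes are named, and for each the bin of highest mean, the start bin and the OG-DER of smallest p, together with the 5 long genes of most similar pattern and a list of 12 further long genes, some of which are not reported here. The genes, lists and tests were chosen with earlier results of these data known. Leaving segments out, and the segment rule itself, were chosen after seeing the data. Each fit was tested on simulated data, which do not cover all of the range seen here. The gene changes put in were far larger than any difference in the 8 genes. The simulated bins were drawn from bins with OG reads in every column, so empty segment bins were not represented. Alternatives covered the divisor, values below 0, gene limits, GC, read ratios, filters, pseudocount, a block for the column number and leaving out the columns of each number.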

Additional observations from a re-analysis of the deposited data

How the results depend on the processing

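The median level of the 8 genes (0.802 in WT, 0.784 in MUTYH-/-, 0.747 in OGG1-/- cells and 0.821 in DKO) moved most with base composition. With GC strata it was 0.983, 1.012, 0.982 and 1.008, and as a ratio of OG to input reads 0.966, 0.970, 0.960 and 0.976. With the column median as divisor it was 0.895 in WT and 0.818 in OGG1-/-, and with values below 0 set to 0 it was 0.842 and 0.799. The WWOX difference from WT turned to 0.042 in OGG1-/- and 0.0919 in DKO with segments left out (an alternative chosen after seeing the data). The DKO difference ran from -0.0558 to 0.0166 when the columns of 1 number were left out of every genotype, turning without the columns numbered 3. These numbers come from the column names and are not tied to a replicate in the sample titles. Called genes stayed at 0 in every fit except 1 in DKO without the columns numbered 1 (range 0 to 1).

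OG-DERs in the 8 genes fell to 0 gained and 0 lost in all 3 knockouts at an adjusted p of 0.05. Without a filter on low values, gains were 62, 42 and 64 and losses 89, 113 and 85 in MUTYH-/-, OGG1-/- and DKO. The gains were 0.439%, 0.297% and 0.453% of bins, against 0.498%, 0.474% and 0.502% over all bins. The losses were 0.630%, 0.799% and 0.601%, against 0.569%, 0.493% and 0.536% over all bins. With segments left out, losses were 25 in OGG1-/- (0.183%, against 0.255% over all bins) and 20 in DKO (0.147% against 0.312%). Leaving out the columns of 1 number gave gains of 10 to 20, 5 to 12 and 6 to 9 and losses of 11 to 20, 11 to 16 and 8 to 15, each time with fewer columns tested, and WWOX losses of 1 to 7, 2 to 6 and 2 to 6. The share of OG-EBs in the 8 genes over that in all bins (0.206, 0.197, 0.161 and 0.206 in WT, MUTYH-/-, OGG1-/- and DKO) was 0, 0, 0 and 0.052 at the 99th percentile, 0 in WT and 0.0503 in OGG1-/- when all 3 columns were required, and 1.0985, 0.842, 0.772 and 0.958 by log2 ratio. Without the columns of 1 number it ran from 0.132 to 0.240 in WT, 0.130 to 0.301 in MUTYH-/- and 0.101 to 0.202 in OGG1-/-. Counting single bins at 0 gave 2 WWOX bins in MUTYH-/- and 44 in DKO. Why these values moved was not tested. With 10% in place of 25% of the second highest column, the MU3 segment was no longer found (0 of 118 bins).

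Column numbers were not shown to pair the samples: deviations of same-numbered columns correlated at -0.329 to 0.253 (median -0.00788, 18 pairs), and others at -0.227 to 0.367. With the number as a replicate block, 0 genes were called in every contrast, the WWOX p by limma was 0.00890, 0.0479, 0.648 and 0.00434 for MUTYH-/-, OGG1-/-, DKO and the interaction, and the WWOX OG-DER counts were the same. Depth limits single bins most, since a bin holds 21.0 to 40.2 OG reads per column on average, while gene levels average at least 900 bins.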

Other observations

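ROBO2 lacked reads over chr3:77391001-77518000 in DKO1 and DKO2 but not in DKO3, although all 3 DKO columns shared the pair of WWOX segments. DLG2 lacked reads over 40 bins at chr11:85069001-85109000 in OG1 and OG2, the columns that shared the 206 kb WWOX segment. MU1 and MU2, which shared the 303 kb WWOX segment, also shared 110 and 53 bins without reads at chr4:181299001-181409000 and chr4:181415001-181468000, where no protein-coding gene is annotated. These positions describe which columns resemble each other in read coverage, and no column was tied to a clone from them.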
